A study of Mus musculus with 17 samples.

Results

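The genes described here are the angiopoietin ligands Angpt1, Angpt2 and Angpt4, the TIE receptors Tek and Tie1, and the angiopoietin-like genes Angptl2 and Angptl4. They were chosen by name, and all 7 were found in the deposited count table of 53379 genes and passed the low-count filter that left 17766 genes to test. The RNA came from kidney cortex enriched for glomeruli, from 17 mice on the BTBR strain background, with 1 library per mouse. In 7 ob/ob mice, which lack functional leptin through the ob mutation of Lep and become obese and diabetic on this background, atrasentan was given at 5 mg/kg per day in the drinking water. Atrasentan blocks the endothelin A receptor. In 5 ob/ob mice saline was given in its place, and 5 wild type BTBR mice, with no treatment in their labels, were the lean controls. Treatment ran for 6 weeks from 18 weeks of age, and all mice were killed at 24 weeks. The genotype labels read BTBR ob for the atrasentan mice, ob/ob-d30 for the saline mice and WT-d30 for the wild type mice, and no label explains d30.

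TIE2, the product of Tek, is a receptor tyrosine kinase of endothelial cells. Angiopoietin-1, the product of Angpt1, is made by cells around the vessel and activates TIE2, which keeps the endothelium quiet and tight. Angiopoietin-2, from Angpt2, is made largely by endothelial cells and some mural cells, is stored in endothelial granules, and acts as a weak or context-dependent agonist that can displace angiopoietin-1. Mouse Angpt4 encodes the counterpart of human angiopoietin-4, which also binds TIE2. TIE1 binds none of these ligands strongly and modulates TIE2 signalling by pairing with it. In the glomerulus podocytes and mesangial cells face the fenestrated endothelium that carries both receptors. The angiopoietin-like proteins resemble the ligands but do not bind TIE2: ANGPTL2 is a secreted protein that binds integrins, and ANGPTL4 inhibits lipoprotein lipase and is a classic target of PPAR receptors and of hypoxia.

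In the GENCODE annotation of GRCm38, Angpt1 lies on chromosome 15 (42424723 to 42676977, minus strand), Angpt2 on chromosome 8 (18690263 to 18741562, minus strand) and Angpt4 on chromosome 2 (151911210 to 151945337, plus strand). Tek (94739289 to 94874976, plus strand) and Tie1 (118471191 to 118490061, minus strand) lie on chromosome 4. Angptl2 is on chromosome 2 (33216069 to 33247717, plus strand) and Angptl4 on chromosome 17 (33773750 to 33781830, minus strand). Angpt2 lies inside Mcph1 and Angptl2 inside Ralgps1, each on the opposite strand, but no exon base is shared. An antisense gene, Gm17473, covers 14.2% of the exon bases of Angpt1, and since the library kit does not mark the strand, reads there could belong to either gene. Gm17473 itself had at most 4 reads in a library. This count does not tell how reads on the shared bases were assigned. The other members shared no position with another gene.

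Promoter windows from RefSeq (GRCm38.p6, 250 bases before to 50 after the start) matched 4 of the 7 members. The windows of Angpt4, the member with the largest fold changes, and of the receptors Tie1 and Tek, which both rose with atrasentan against saline, are shown 5′ to 3′ on the gene's strand. Capitals mark GGAA or its reverse complement TTCC, the core of sites for ETS factors, a family with several regulators of endothelial genes. The windows are chr2:151910957-151911256 (plus strand) for Angpt4, chr4:118489800-118490099 (minus strand) for Tie1 and chr4:94739039-94739338 (plus strand) for Tek.
Angpt4: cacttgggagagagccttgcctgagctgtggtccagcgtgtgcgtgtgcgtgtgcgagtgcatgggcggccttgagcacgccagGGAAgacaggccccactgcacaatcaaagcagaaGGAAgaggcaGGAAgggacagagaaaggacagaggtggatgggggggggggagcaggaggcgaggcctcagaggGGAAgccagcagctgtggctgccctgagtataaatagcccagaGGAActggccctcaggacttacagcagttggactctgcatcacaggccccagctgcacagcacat
Tie1: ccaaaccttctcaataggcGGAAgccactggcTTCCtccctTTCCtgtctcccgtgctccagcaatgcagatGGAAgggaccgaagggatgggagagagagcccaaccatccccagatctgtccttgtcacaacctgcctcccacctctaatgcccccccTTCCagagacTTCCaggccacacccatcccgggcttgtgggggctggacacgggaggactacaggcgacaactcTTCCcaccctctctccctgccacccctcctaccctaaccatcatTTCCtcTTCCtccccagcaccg
Tek: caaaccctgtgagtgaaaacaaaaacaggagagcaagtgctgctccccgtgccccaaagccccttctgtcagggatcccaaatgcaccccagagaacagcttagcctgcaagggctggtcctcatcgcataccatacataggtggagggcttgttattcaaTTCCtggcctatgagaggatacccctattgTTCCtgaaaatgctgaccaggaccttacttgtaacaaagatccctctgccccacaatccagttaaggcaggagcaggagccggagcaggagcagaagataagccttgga
The Tie1 window held 9 matches to GGAA on either strand, a count reached by 1.59% of the 32851 promoter windows of this length. It was placed by the RefSeq start, which lies inside the GENCODE gene (minus strand, start at 118490061). Most of the Tie1 window thus lies within the gene as GENCODE annotates it, not upstream of it. The Angpt4 window held 5, reached by 28.6%, and the Tek window 2, reached by 84.6%. GGAA and TTCC cannot overlap each other, and 96.0% of all windows held at least 1. In the same windows both strands were searched for GTAAACA (FOXO), ACGTG (hypoxia response), CCACCC (KLF) and GATAA (GATA), which 3.65%, 19.6%, 31.5% and 25.4% of all windows hold. CCACCC was found in Tie1, with 2 matches, and GATAA in Tek, with 1, and no other of these letters was found in the 3 windows. These are matches of letters, and binding was not measured.

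Gene reads per library ran from 37252939 to 52528747 with atrasentan, from 35938445 to 40268662 with saline and from 29161833 to 40965108 in wild type. All members but Angpt1 had at least 111 reads in every library, and Angpt1 had 28 to 374. Atrasentan libraries had fewer detected genes (21396 to 23081) than saline (24335 to 25313) and wild type libraries (23901 to 24877). Reads outside genes made up 3.17% to 5.65% of all reads with atrasentan, 5.95% to 8.17% with saline and 6.26% to 8.58% in wild type. The sum of 20 podocyte markers was 2993 to 6467 CPM (the usual depth-scaled read count, with TMM scaling between libraries) with atrasentan, 5838 to 11457 with saline and 10430 to 16521 in wild type. That of 18 endothelial markers other than the TIE receptors was 19239 to 25503 CPM with atrasentan, 13181 to 17908 with saline and 14568 to 16230 in wild type. That of 19 proximal tubule markers was 317 to 2973, 3218 to 15829 and 1846 to 3959 CPM in the same order, with saline libraries 1 and 3 the highest. No marker of these lists was at 0 in a whole group. The sum of 14 mesangial markers was 9174 to 15687 CPM with atrasentan, 6529 to 9091 with saline and 6693 to 8539 in wild type. Other cell types moved in the same comparisons: 10 of 14 macrophage markers rose with atrasentan against saline and 8 against wild type (summed 492 to 1762 CPM with atrasentan, 310 to 558 with saline, 326 to 809 in wild type), and 4 of 5 red cell genes rose against saline and 2 against wild type (260 to 924, 68.1 to 382 and 95.1 to 451 CPM). Of all genes tested 15.3% rose against saline and 14.7% against wild type. No gene of the macrophage and red cell lists was at 0 in a whole group, and their part in the members' differences was not tested. In such bulk RNA fewer cells of a type and less RNA per cell cannot be told apart.

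Per kilobase of exon, the TIE receptors were among the higher-expressed genes of this tissue in every group, and Angpt1 was low. In wild type the mean levels were 102 ± 7.64 CPM per kb for Tek, 97.6 ± 11.02 for Tie1 and 95.0 ± 37.7 for Angptl2 (SD, n = 5), and the ranges of neighbours in this order overlapped. Angpt2 followed at 52.5 ± 7.21 CPM per kb, with a range that touched that of Angptl2. Angptl4 at 17.4 ± 7.10, Angpt4 at 2.47 ± 0.862 and Angpt1 at 0.678 ± 0.193 each lay clear of the next. With saline the order was Tie1 (107 ± 21.1), Tek (86.3 ± 11.7), Angpt2 (75.3 ± 9.61), Angptl2 (51.8 ± 15.5), Angptl4 (19.5 ± 11.8), Angpt4 (7.77 ± 1.27) and Angpt1 (1.22 ± 0.695, n = 5), and only Angpt1 lay clear of its neighbour. With atrasentan Tie1 (149 ± 23.6), Angpt2 (127 ± 37.2) and Tek (110 ± 16.0 CPM per kb) overlapped in range. Angptl2 (42.8 ± 12.8), Angptl4 (29.8 ± 13.6) and Angpt4 (19.7 ± 5.34) followed, and Angpt1 (0.503 ± 0.194, n = 7) lay below them all. The Tie1 and Tek ranges lay above that of Angptl2, whose highest library (63.9 CPM per kb) exceeded the lowest of Angpt2 (61.5, library 5). Read as a rank among 17748 tested genes with a length, Angpt4 stood above 82.6% of genes in atrasentan mice, 65.7% in saline mice and 45.2% in wild type mice.

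**Figure D1:**
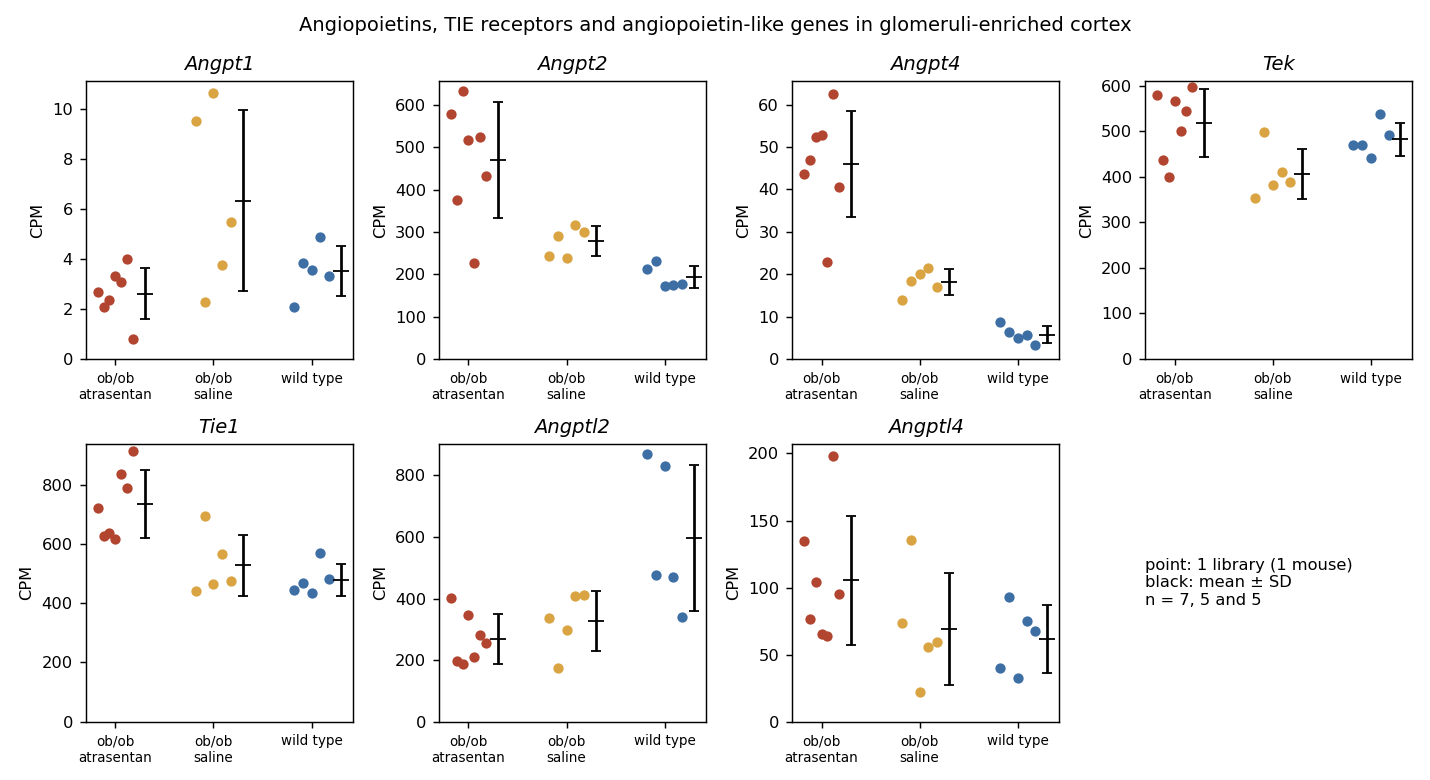
Each panel plots 1 gene's level in CPM (linear axis from 0) in every library of the atrasentan, saline and wild type groups, left to right, with the mean ± SD in black. Angpt4 falls into 3 levels that do not overlap (22.9 to 62.6, 13.8 to 21.5 and 3.27 to 8.75 CPM), while Angptl4 overlaps in all groups.

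All 3 comparisons were tested with edgeR's quasi-likelihood test, with Benjamini-Hochberg adjustment over all 17766 genes and a threshold of 0.05. In saline ob/ob against wild type mice 1 of 7 members was called, Angpt4, which was higher, where 5.12% of all genes were called, 3.21% higher and 1.91% lower (570 higher and 340 lower, or 503 and 483 with upper-quartile scaling). In atrasentan against saline ob/ob mice 5 members were called, with Angpt2, Angpt4, Tek and Tie1 higher and Angpt1 lower, where 33.8% of all genes were called, 15.3% higher and 18.5% lower. In atrasentan ob/ob against wild type mice 4 were called, with Angpt2, Angpt4 and Tie1 higher and Angptl2 lower, where 29.2% of all genes were called (2619 higher and 2571 lower, or 1897 and 3153 with upper-quartile scaling). Angptl4 was called in none of the 3, in which edgeR gave unadjusted p-values of 0.686, 0.126 and 0.0573. The median log2 fold change of the members was 0.17, 0.48 and 0.61 in that order, and that of all genes 0.0056, -0.0051 and -0.0088. The comparisons share groups, so their results are not independent of each other. Without saline libraries 1 and 3, which had the most proximal tubule RNA, Angpt4 was the only member called in atrasentan against saline (Tie1 stood at 0.34, adjusted p = 0.132). Once the proximal tubule mean entered as a covariate, none of the 7 and 3 of all genes were called there. Once the outside-gene read share entered instead, none was called there, and Angpt4 alone in atrasentan against wild type. The tubule mean ran from 3.22 to 6.32 log2 CPM with atrasentan and from 6.46 to 8.77 with saline, and the read share from 3.17% to 5.65% and from 5.95% to 8.17%. Neither overlapped between these groups, so such a fit cannot tell the covariate from the group.

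Angpt4, the ligand with the lowest wild type level after Angpt1, was higher in both ob/ob groups. It had 22.9 to 62.6 CPM (median 47.0) in the atrasentan libraries, 13.8, 18.3, 20.1, 21.5 and 16.99 CPM in the saline libraries, and 8.75, 6.27, 4.87, 5.72 and 3.27 CPM in the wild type libraries. Every atrasentan library lay above every saline library, and every saline library above every wild type library. Between saline and wild type the log2 fold change was 1.65 ± 0.25 (SE, edgeR adjusted p = 0.00344), and 19 of all genes tested had a smaller p. Between atrasentan and saline it was 1.34 ± 0.23 (adjusted p = 0.000584), and between atrasentan and wild type 2.99 ± 0.25 (adjusted p = 2.39e-06), or 7.93-fold, with 5 genes at a smaller p. Groups that do not overlap were found for 7.42%, 11.8% and 13.2% of genes in these comparisons. All 3 calls held with any single library left out. The saline difference from wild type was 1.75 but not called (adjusted p = 0.0743) with podocyte minus proximal tubule markers as a covariate, and the atrasentan difference from saline was not called with the proximal tubule mean (1.36, adjusted p = 0.131) or the share of reads outside genes (1.21, adjusted p = 0.116) as a covariate. Atrasentan library 5, the lowest of its group at 22.9 CPM, also had the lowest mesangial marker mean of that group (7.75 log2 CPM). The part of mesangial markers in the Angpt4 differences was not tested.

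Angpt2, the abundant ligand, was higher with atrasentan than in either other group. It had 227 to 633 CPM (median 518) with atrasentan, 243, 292, 238, 317 and 301 CPM with saline, and 213, 231, 173, 176 and 176 CPM in wild type. In 6 of 7 atrasentan libraries it lay above every saline and every wild type library, and atrasentan library 5, at 227 CPM, lay below every saline library. Against saline the log2 fold change was 0.76 ± 0.19 (edgeR adjusted p = 0.00602) and against wild type 1.28 ± 0.19 (adjusted p = 0.000144). The saline libraries all lay above the wild type libraries, where 7.42% of all genes had groups that did not overlap. This difference of 0.52 ± 0.20 did not pass over all genes (adjusted p = 0.134). It passed in the fit of those groups alone (0.50, adjusted p = 0.0355) and without atrasentan library 5 (0.52, adjusted p = 0.0391). The difference between atrasentan and saline did not pass without saline libraries 1 and 3 (0.63, adjusted p = 0.0746), nor with the endothelial mean (0.93, adjusted p = 0.0980) or podocyte minus proximal tubule markers (0.58, adjusted p = 0.170) as a covariate. Mesangial markers also had their lowest atrasentan mean in library 5 (7.75 log2 CPM, against 8.17 to 8.61 in the others). Of 14 such markers 7 rose with atrasentan against saline and 7 against wild type, where 15.3% and 14.7% of all genes rose. Their part in the Angpt2 differences was not tested.

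Angpt1 was the member with the fewest reads, and it was lower with atrasentan than with saline. It had 0.814 to 3.99 CPM (median 2.69) with atrasentan, 9.51, 2.26, 10.6, 3.75 and 5.48 CPM with saline, and 2.08, 3.83, 3.57, 4.87 and 3.30 CPM in wild type. Saline libraries 1 and 3 were the highest of all 17 and atrasentan library 7 the lowest, and the groups overlapped. Against saline the log2 fold change with atrasentan was -1.27 ± 0.37 (edgeR adjusted p = 0.0142). Saline against wild type (0.84 ± 0.40, adjusted p = 0.238) and atrasentan against wild type (-0.43 ± 0.37, adjusted p = 0.416) did not pass. Proximal tubule markers moved with it: their mean log2 CPM was 8.77 and 8.76 in saline libraries 1 and 3, the highest values, and 3.22 in atrasentan library 7, the lowest. Of the 19 markers 18 fell with atrasentan against saline, where 18.5% of all genes fell. The Angpt1 difference was -0.55 (adjusted p = 0.334) without saline libraries 1 and 3, -1.001 (adjusted p = 0.0611) without saline library 3 alone, and 0.99 (adjusted p = 0.295) once the proximal tubule mean entered as a covariate.

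**Figure D2:**
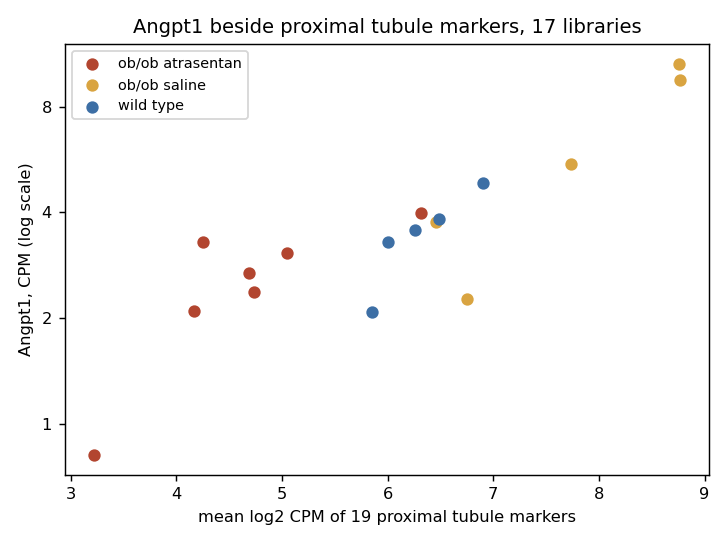
Angpt1 in CPM (log scale) is plotted against the mean log2 CPM of 19 proximal tubule markers for the 17 libraries, colored by group. The saline libraries with 9.51 and 10.6 CPM of Angpt1 stand at the high end of the tubule markers, and the atrasentan library with 0.814 CPM at the low end.

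The ratio of Angpt2 to Angpt1 was higher with atrasentan. Angpt1 was the lowest member in every group, and the ratio leaves out Angpt4, which stood above it. The log2 ratio of Angpt2 to Angpt1 reads was 6.19 to 8.96 (median 7.45) with atrasentan, 4.67, 6.98, 4.48, 6.38 and 5.77 with saline, and 6.64, 5.90, 5.58, 5.16 and 5.71 in wild type. It was higher with atrasentan by 1.87 than with saline (exact permutation p = 0.00758) and by 1.72 than in wild type (exact permutation p = 0.00505), each with an adjusted p of 0.0227 over the 18 exact two-sided tests of ratios and marker-relative levels. Saline and wild type differed by -0.14 (exact permutation p = 0.794). Without saline libraries 1 and 3 the difference between atrasentan and saline was 1.15 and did not pass (adjusted exact permutation p = 0.206). Relative to the mean of podocyte markers, Angpt1 was higher with saline than in wild type by 1.59 (adjusted exact permutation p = 0.0317), when 9 of 20 podocyte markers and 1.91% of all genes fell. Atrasentan and saline differed by -0.31 in this measure (adjusted exact permutation p = 0.635). Atrasentan stood above wild type by 1.28 (adjusted exact permutation p = 0.0341), when 18 of 20 podocyte markers and 14.5% of all genes fell. Relative to the mean of mesangial markers, Angpt1 was lower with atrasentan than with saline by a difference of -1.64 (adjusted exact permutation p = 0.0227), when 7 of 14 mesangial markers and 15.3% of all genes rose. Saline and wild type differed by 0.56 in this measure (adjusted exact permutation p = 0.368). Atrasentan and wild type differed by -1.08 (adjusted exact permutation p = 0.0227), when 7 of 14 mesangial markers and 14.7% of all genes rose. The sign against wild type thus depended on the markers used as reference. The podocyte-relative difference between saline and wild type missed the threshold without wild type library 1, 2, 3 or 5 (adjusted exact permutation p up to 0.100). Without saline libraries 1 and 3 it did not pass (0.84), nor did the mesangium-relative difference between atrasentan and saline (-0.97). The podocyte-relative difference between atrasentan and wild type missed the threshold in 7 leave-one-out tests (adjusted exact permutation p up to 0.0909).

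Tek, the TIE2 receptor, was higher with atrasentan than with saline. It had 400 to 598 CPM (median 545) with atrasentan, 353, 498, 382, 411 and 388 CPM with saline, and 469, 470, 442, 538 and 492 CPM in wild type. The groups overlapped, and 4 of 5 saline libraries lay below every wild type library. Against saline the log2 fold change with atrasentan was 0.35 ± 0.11 (edgeR adjusted p = 0.0225). Saline against wild type (-0.25 ± 0.12, adjusted p = 0.241) and atrasentan against wild type (0.10 ± 0.11, adjusted p = 0.517) did not pass. Leaving out saline library 1, 3 or 5 ended the call, at 0.31 to 0.33 with adjusted p-values of 0.0698, 0.0583 and 0.0516. It was also lost in the fit of those groups alone (0.34, edgeR adjusted p = 0.0539) and without saline libraries 1 and 3 (0.26, adjusted p = 0.204). The same held without atrasentan libraries 5 and 7 (0.31, adjusted p = 0.0597), a setting chosen after seeing the data. In all, 7 of 14 alternative settings lost the call.

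Tie1 was higher with atrasentan than in either other group. It had 616 to 914 CPM (median 721) with atrasentan, 443, 694, 464, 565 and 475 CPM with saline, and 445, 468, 435, 571 and 481 CPM in wild type. Every atrasentan library lay above every wild type library, where 13.2% of all genes had groups that did not overlap. In 4 of 7 atrasentan libraries Tie1 lay above every saline library. Against saline the log2 fold change was 0.48 ± 0.13 (edgeR adjusted p = 0.0104) and against wild type 0.61 ± 0.13 (adjusted p = 0.00217). Saline against wild type did not pass (0.14 ± 0.14, adjusted p = 0.634). The endothelial markers moved alongside: 12 of 18 rose with atrasentan against saline (median log2 fold change 0.47) and 12 against wild type (0.41), where 15.3% and 14.7% of all genes rose. None of the 18 was called in saline against wild type by edgeR or by DESeq2, with 2 at an unadjusted p under 0.05. With the endothelial mean as a covariate, Tie1 stood at -0.03 against saline (adjusted p = 0.949) and 0.09 against wild type (adjusted p = 0.732), and Tek at 0.11 against saline (adjusted p = 0.779).

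The 2 receptors did not keep the same proportion. The log2 ratio of Tie1 to Tek reads was 0.12 to 0.74 (median 0.53) with atrasentan, 0.32, 0.48, 0.28, 0.46 and 0.29 with saline, and -0.08, -0.01, -0.02, 0.09 and -0.03 in wild type. Every ob/ob library, treated or not, lay above every wild type library. How often other gene pairs separate these groups was not worked out. The difference from wild type was 0.38 with saline (exact permutation p = 0.00794, the smallest that 5 against 5 mice can give) and 0.51 with atrasentan (exact permutation p = 0.00253), each with an adjusted p of 0.0227. Atrasentan and saline differed by 0.14 (exact permutation p = 0.217). A ratio within a library does not depend on how libraries are scaled, and in each leave-one-out test both differences from wild type kept an adjusted exact permutation p of at most 0.0357.

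Set against the mean of 18 endothelial markers, Tek was lower in the ob/ob groups and the difference of Tie1 did not pass. Tek minus the mean log2 CPM of the 18 endothelial markers was -0.70 to -0.09 (median -0.38) with atrasentan, -0.21, -0.31, -0.16, -0.33 and -0.29 with saline, and 0.06, -0.08, -0.05, 0.08 and -0.02 in wild type. No ob/ob library reached the wild type range. How often other genes separate the groups relative to this mean was not worked out. The difference from wild type was -0.26 with saline (exact permutation p = 0.00794, adjusted p = 0.0227) and -0.39 with atrasentan (exact permutation p = 0.00884, adjusted p = 0.0227). Without wild type library 1 the difference between atrasentan and wild type was -0.37 and missed the threshold (adjusted exact permutation p = 0.0545). Tek was not alone in this, by log2 fold changes against wild type. With saline Emcn stood at -0.47, Nostrin at -0.32 and Icam2 at -0.29, beside -0.25 for Tek. With atrasentan Emcn stood at -0.01 and Nostrin and Sox17 at -0.04, beside 0.10 for Tek. The other markers stood above Tek, and no marker was itself tested against the mean. Tie1 minus the same mean was 0.12 ± 0.16 with atrasentan (SD, n = 7), 0.11 ± 0.06 with saline and -0.01 ± 0.10 in wild type (n = 5 each), and its differences from wild type were 0.13 with atrasentan (adjusted exact permutation p = 0.214) and 0.12 with saline (adjusted exact permutation p = 0.130). Without wild type library 4 the saline difference was 0.16 and passed (adjusted exact permutation p = 0.0408).

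**Figure D3:**
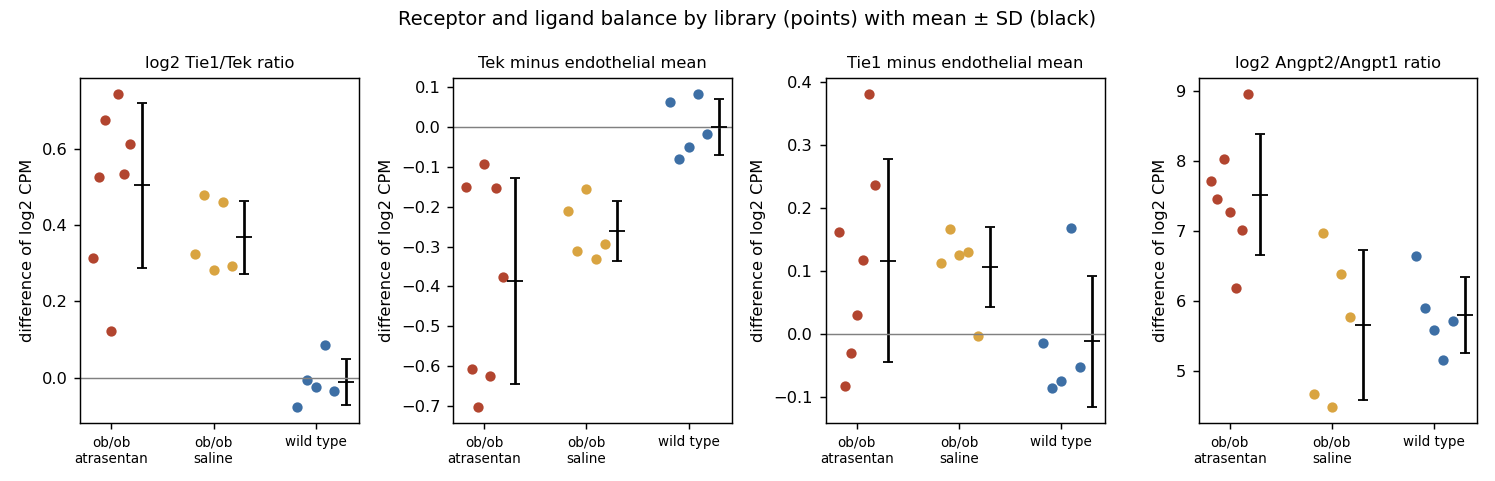
Each panel plots a difference of log2 CPM per library (points) with mean ± SD (black) for the atrasentan, saline and wild type groups, left to right. In the panel of the Tie1 to Tek ratio all ob/ob libraries (0.12 and above) lie over the wild type libraries (0.09 and below), and in the panel of Tek relative to endothelial markers they lie below them.

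Angptl2 was lower in the ob/ob groups by its means, and the difference passed with atrasentan. It had 189 to 402 CPM (median 257) with atrasentan, 338, 174, 297, 408 and 412 CPM with saline, and 868, 477, 831, 470 and 341 CPM in wild type. In 5 of 7 atrasentan libraries it lay below every wild type library, and wild type libraries 1 and 3 stood well above the rest. Against wild type the log2 fold change was -1.15 ± 0.26 with atrasentan (edgeR adjusted p = 0.00304) and -0.87 ± 0.28 with saline, which did not pass (adjusted p = 0.0763, though it passed with DESeq2 at -0.87, adjusted p = 0.0315). Atrasentan and saline differed by -0.28 ± 0.26 (adjusted p = 0.427). The atrasentan difference from wild type was -0.36 and not called with the endothelial mean as a covariate (adjusted p = 0.606), and -2.03 and not called with the outside-gene read share (adjusted p = 0.0845). The podocyte markers also stood highest in wild type libraries 1 and 3, with mean log2 CPM of 8.44 and 8.63 against 7.88 to 8.05 in the other wild type libraries. Of the 20 podocyte markers 18 fell with atrasentan against wild type, where 14.5% of all genes fell. The part of these markers in the Angptl2 difference was not tested.

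Angptl4 varied widely between mice of a group, and no difference between groups passed. It had 63.9 to 198 CPM (median 95.3) with atrasentan, 73.6, 135, 22.01, 55.6 and 59.1 CPM with saline, and 39.8, 93.1, 32.6, 75.1 and 67.6 CPM in wild type. Within the saline group its highest library stood 6.16-fold above its lowest. The log2 fold change was 0.17 ± 0.40 between saline and wild type (edgeR adjusted p = 0.867), 0.61 ± 0.38 between atrasentan and saline (adjusted p = 0.223) and 0.78 ± 0.38 between atrasentan and wild type (adjusted p = 0.135). Without saline library 2, the highest of its group, the difference between atrasentan and saline was 1.01 and passed (adjusted p = 0.0460). Adipocytes express Angptl4 strongly. Of 6 adipocyte markers, Adipoq, Plin1, Cidec and Ucp1 had at most 16 reads in a library and Cfd at most 82, with Cidec and Ucp1 at 0 in all atrasentan libraries. Fabp4, which capillary endothelium also expresses, had 67.1 to 417 CPM and rose in all 3 comparisons, by 1.12 with saline against wild type, 0.69 with atrasentan against saline and 1.81 with atrasentan against wild type. The summed level of the 6 was 252 to 417 CPM with atrasentan, 150 to 384 with saline and 67.5 to 134 in wild type. Nearly all of this sum was Fabp4, and no other marker of the 6 exceeded 2.47 CPM in a library. The part of these markers in the Angptl4 values was not tested.

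**Figure D4:**
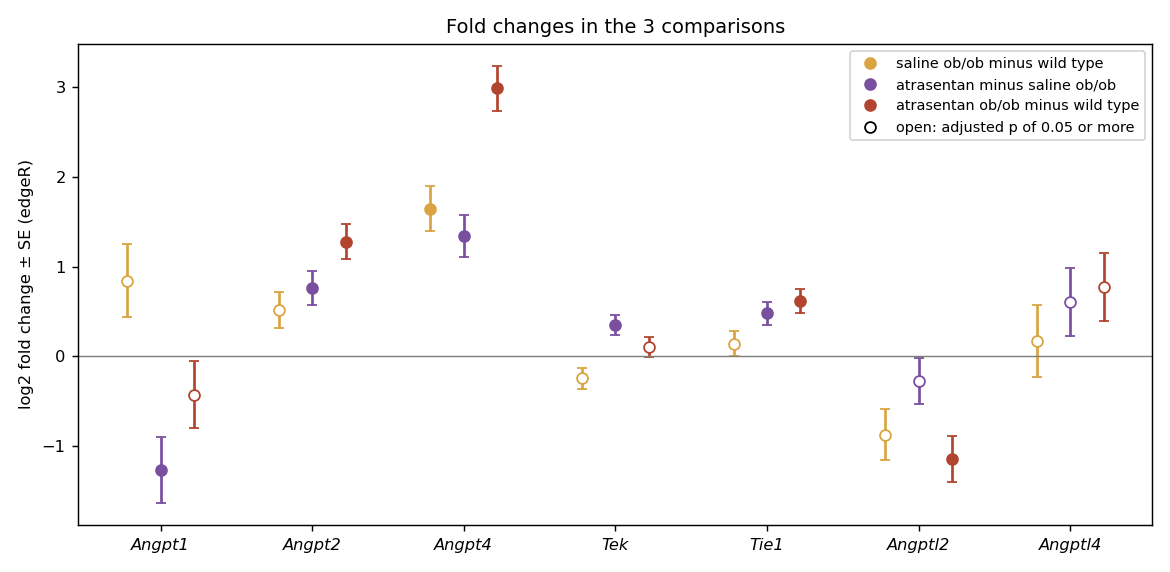
The log2 fold change (edgeR) and its SE are plotted for each member in the 3 comparisons, with filled points at an adjusted p under 0.05. Angpt4 is filled in all 3, at 1.65, 1.34 and 2.99, and Angptl4 in none.

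Of 20 partners, adaptors and effectors of the TIE receptors, none was called in saline against wild type by edgeR or DESeq2, and 4 had an unadjusted p under 0.05. With atrasentan against saline 7 rose and 3 fell, where 15.3% of all genes rose and 18.5% fell (median log2 fold change 0.18, against -0.0051 over all genes). Akt1, a kinase downstream of TIE2, rose by 0.46 ± 0.08 (561 ± 40.7 against 407 ± 26.8 CPM, adjusted p = 0.000476), Mmp14, a membrane protease, by 0.88 ± 0.15 and the adaptor Grb2 by 0.37 ± 0.07, while the adaptor Grb7 fell by 2.74 ± 0.46. Grb7 fell beside the proximal tubule markers, and their part in its fall was not tested. Against wild type 6 rose and 2 fell with atrasentan, where 14.7% of all genes rose and 14.5% fell, with Mmp14 higher by 1.05 ± 0.15 (303 ± 46.6 against 146 ± 37.2 CPM) and Akt1 by 0.45 ± 0.08. Ptprb and Foxo1 were picked out after their values were seen. Ptprb, the endothelial phosphatase that acts on TIE2, stood at 629 ± 94.8 CPM with atrasentan, 550 ± 102 CPM in saline mice and 477 ± 131 CPM in wild type mice and was not called in any of the 3 comparisons. Foxo1, the transcription factor that drives Angpt2 and is held back by TIE2 signalling, stood at 161 ± 19.5, 156 ± 9.11 and 154 ± 19.9 CPM in the same order and was likewise not called. Among 7 cargo and machinery genes of the endothelial granules that store angiopoietin-2, 4 rose with atrasentan against wild type (Rab3d, Edn1, Plat and Selp), where 14.7% of all genes rose, and 1 against saline, where 15.3% did (Rab3d, a granule GTPase, by 0.71 ± 0.13, 77.1 ± 14.5 against 47.1 ± 3.15 CPM). None was called in saline against wild type by edgeR and 1 by DESeq2, with 2 at an unadjusted p under 0.05.

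Among the other angiopoietin-like genes, 4 of 5 could be tested. Angptl7 stood at 13.0 ± 6.41 CPM with atrasentan (n = 7), 76.3 ± 47.5 with saline and 36.9 ± 9.34 in wild type (n = 5 each). Against saline it fell by 2.56 ± 0.43 with atrasentan (edgeR adjusted p = 0.000451), and against wild type it fell by 1.51 ± 0.42. It fell beside the proximal tubule markers, and their part in the fall was not tested. None of the 4 was called in saline against wild type by edgeR or DESeq2, with 2 at an unadjusted p under 0.05.

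Of the lipoprotein lipase system that ANGPTL4 acts on, Gpihbp1 was called in all 3 comparisons. Gpihbp1, which carries the lipase to the capillary surface, stood at 396 ± 82.5 CPM with atrasentan, 226 ± 58.2 CPM in saline mice and 120 ± 15.8 CPM in wild type mice. It rose by 0.92 ± 0.18 with saline against wild type (edgeR adjusted p = 0.0119), by 0.81 ± 0.17 with atrasentan against saline (adjusted p = 0.00185) and by 1.73 ± 0.17 with atrasentan against wild type (adjusted p = 8.6e-06). Lpl, the lipase itself, rose with atrasentan by 0.59 ± 0.11 against saline and 0.54 ± 0.11 against wild type. Of the 9 genes of this list that could be tested, 2 rose with saline against wild type, 3 rose and 2 fell with atrasentan against saline, and 3 rose and 1 fell with atrasentan against wild type, where 5.12%, 33.8% and 29.2% of all genes were called. Vldlr, a lipoprotein receptor, was higher by 0.97 with saline against wild type and fell by 0.84 with atrasentan against saline, and Pcsk6, a proprotein convertase, fell by 1.87 with atrasentan against saline and fell by 2.48 against wild type. Of 14 PPAR receptors and targets, 2 rose with saline against wild type, 2 rose and 7 fell with atrasentan against saline, and 3 rose with atrasentan against wild type. Pparg rose with atrasentan against saline by 0.77 ± 0.12 (61.7 ± 9.09 against 36.1 ± 3.88 CPM), and Ppara, which the proximal tubule expresses, fell by 3.12 ± 0.47. Of 11 hypoxia response genes 2 rose with saline against wild type (Ndrg1 and Bnip3), and 2 rose (Hif1a and Epas1) and 2 fell (Vegfa and Egln3) with atrasentan against wild type. With atrasentan against saline 1 rose and 4 fell, or 5 of 11 where 33.8% of all genes were called, among them Vegfa, the endothelial growth factor made by podocytes, which fell by 0.89 ± 0.20 (309 ± 80.8 against 573 ± 159 CPM). Of 6 glucocorticoid response genes Fkbp5 rose in saline against wild type by 1.93 ± 0.44, 3 rose with atrasentan against wild type, and none was called in atrasentan against saline by edgeR or DESeq2, with 0 at an unadjusted p under 0.05.

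The genes whose log2 CPM over the 17 libraries was most like that of a member, by Pearson's r among all genes tested, are given as a description. The libraries share their 3 groups and their depth, so the r within groups, taken on deviations from group means, is given too. The closest to Angpt4 was Vegfd, a ligand of VEGF receptors (r = 0.98 and 0.80 within groups, at mean levels of 117 CPM (atrasentan), 47.5 CPM (saline) and 18.3 CPM (wild type)). The closest to Angpt2 were Brip1os (0.97 and 0.89) and P2rx1, an ATP-gated channel (0.96 and 0.88). The closest to Tie1 was Acvrl1, the endothelial BMP receptor ALK1 (0.96 and 0.88), and to Tek Arhgef3 (0.90 and 0.86). The closest to Angpt1 was Dio1, a deiodinase that the proximal tubule expresses (0.93 and 0.94), and to Angptl2 Man1a2 (0.95 and 0.90). For Angptl4 the closest, Rgs2, reached only 0.80 (0.73 within groups).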

How the data were processed

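The authors deposited raw read counts per gene for 17 libraries and a second, normalized log2 table of the same libraries, with no transform stated. Per the submitters' processing notes STAR, HTSeq, DESeq2, edgeR and limma were used with GRCm38, with no annotation release or strand setting stated. Per the labels' protocols, libraries came from poly(A) RNA with a TruSeq RNA kit, a kit that does not mark strand, and single-end reads.

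Tests on the counts used edgeR 4.0.16 (R 4.3.3; filterByExpr by group, TMM scaling, quasi-likelihood F test, all 17 libraries in 1 fit), with Benjamini-Hochberg adjustment over 17766 genes and a threshold of 0.05. The 5 HTSeq lines that name no gene were left out. The SE is the log2 fold change divided by the square root of F. CPM uses TMM-scaled library sizes, and log2 CPM a prior count of 2. Ratios were tested by exact permutation (Python 3.11.15). The fit was tested on simulated data. DESeq2 1.42.0, limma 3.58.1 on voom weights and on the deposited log2 values, other scalings, filters, covariates and library sets were alternatives. Symbols came from GENCODE M21. Replicate numbers follow accession order and pair nothing. The members and lists were chosen with earlier results of these data known. All members were named, with at most 4 called genes per pathway list and comparison by lowest adjusted p, and the closest genes by r. In the text some of these are given by count only. Labels give 1 batch. P-values measure the spread between mice.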

Additional observations from a re-analysis of the deposited data

Results flagged for a closer look

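In 39 sets of libraries (7 members and 6 ratios or marker-relative levels in 3 groups) 3 had a library whose gap to its nearest neighbour was unusually large for the range of its group. Chance flags about 1 in 20 such sets. Angpt1 in atrasentan library 7 was at -0.20 log2 CPM, with the next library at 1.10. Angpt4 in atrasentan library 5 was at 4.52 log2 CPM, with the next at 5.35. Tie1 minus the endothelial mean in wild type library 4 was 0.17, with the next at -0.01.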

How the results depend on the processing

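No paired analysis was possible because the labels number no replicates. In saline against wild type, 910 genes were called, and 2000 with DESeq2, 550 with limma-voom, 1430 with those groups alone, 79 with the mean of proximal tubule markers as covariate, 6 with podocyte minus proximal tubule, 409 with the share of reads outside genes and 54 without saline libraries 1 and 3. In atrasentan against saline, 6001 were called, and 499 with the endothelial covariate, 3 with proximal tubule, 1190 with podocyte minus proximal tubule, 1931 with the outside share and 2577 without saline libraries 1 and 3. In atrasentan against wild type, 5190 were called, and 1930 with the endothelial covariate and 582 with the outside share. Leaving out each library in turn gave 216 to 1523, 4361 to 6338 and 4092 to 5622 calls in these comparisons.

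Of the members, in saline against wild type 2 were called with DESeq2, with those groups alone, with the endothelial covariate and without atrasentan libraries 5 and 7 (a setting chosen after seeing the data), and 0 with podocyte minus proximal tubule. In atrasentan against saline 1 was called with the endothelial covariate, 0 with proximal tubule, 1 with podocyte minus proximal tubule, 0 with the outside share and 1 without saline libraries 1 and 3. In atrasentan against wild type 2 were called with the endothelial covariate and 1 with the outside share. The proximal tubule and outside-share covariates did not overlap between atrasentan and saline libraries. The endothelial and outside-share covariates did not overlap between atrasentan and wild type libraries. In those fits the covariate and the group cannot be told apart. Leaving out each library gave 1 to 2, 3 to 6 and 4 members in each comparison.

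Signs turned as follows, and the cause was not tested. In saline against wild type, Angpt1 was -0.29 with proximal tubule and -0.36 with podocyte minus proximal tubule, and Angptl4 -0.045 with the last and -0.23 to 0.39 with each library left out. In atrasentan against saline, Angpt1 was 0.22 with the endothelial covariate and 0.99 with proximal tubule, Tie1 -0.027 and Angptl2 0.48 with the endothelial covariate, and Angptl4 -0.016 with the outside share. In atrasentan against wild type, Angpt1 was 0.84 and Tek -0.15 with the endothelial covariate, and Angpt1 0.71 and Tek -0.00068 with proximal tubule.

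Without saline libraries 1 and 3, the Angpt2 to Angpt1 ratio differed by 0.58 (saline minus wild type) and 1.15 (atrasentan minus saline), Angpt1 minus the podocyte mean by 0.84 and 0.43, and Angpt1 minus the mesangial mean by -0.10 and -0.97, for the same pairs. Without atrasentan libraries 5 and 7, Tie1 minus the endothelial mean differed by -0.014 between atrasentan and saline. With each library left out, the Angpt2 to Angpt1 ratio ran from -0.48 to 0.15 (saline minus wild type), Tie1 minus the endothelial mean from -0.034 to 0.043 (atrasentan minus saline) and from 0.10 to 0.16 (saline minus wild type), Tek minus that mean from -0.44 to -0.33 (atrasentan minus wild type), and Angpt1 minus the podocyte mean from 1.29 to 1.87 (saline minus wild type) and from 1.04 to 1.53 (atrasentan minus wild type). The Tie1 to Tek differences from wild type kept their sign and their side of the threshold in all settings run for ratios. These were other scalings, another prior count and libraries left out, and no covariate was run for ratios. Angpt1, with 28 reads in its lowest library, is the member that depth limits most.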
